A study of Mus musculus with 4 samples.

Results

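Odam, Amtn, BC037156, Sostdc1 and Cdo1 are 5 of the 31253 genes listed for each of 4 single-cell libraries of mouse gingiva, and all 5 were found by their symbols. They were grouped as genes of the junctional epithelium because of levels measured in these same libraries. Their levels, and the clusters and libraries in which they are high, are therefore given as a description without a test. The genotypes are labelled Itga9-Lyz2-cHet and Itga9-Lyz2-cKO, called cHet and cKO below. Itga9 encodes the α9 subunit of an integrin, and Lyz2 is a myeloid gene whose promoter commonly drives Cre in macrophages and neutrophils rather than in epithelium. Each genotype gave 1 library labelled Control and 1 labelled PD, for periodontitis. In the PD mice a silk ligature and the bacterium Porphyromonas gingivalis were placed at a maxillary second molar, and gingiva was taken 14 days later. The controls carry the same alleles as the PD mice of their genotype, and no wild-type library was analysed here. The number, age and sex of the mice pooled in a library are not given in the labels. With 1 library per group nothing measures the spread between animals, and no p-value is given; intervals in brackets are 95% exact intervals that cover counting error only.

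The junctional epithelium is the thin, non-keratinised collar of cells that seals the gingiva to the tooth surface. It attaches through hemidesmosomes to a specialised basal lamina on the enamel, and it is rebuilt from gingival epithelium after injury. Odam encodes odontogenic ameloblast-associated protein and Amtn encodes amelotin, both secreted by maturation-stage ameloblasts during enamel formation and by the junctional epithelium of the erupted tooth. BC037156 carries the synonym FDC-SP, follicular dendritic cell secreted protein, in RefSeq, where it is typed as protein coding, whereas GENCODE M21 types it as a lincRNA. FDC-SP, Odam and Amtn belong to the secretory calcium-binding phosphoprotein gene cluster. Sostdc1 encodes a secreted antagonist of BMP and WNT signalling that shapes teeth and hair follicles. Cdo1 encodes cysteine dioxygenase, which oxidises cysteine to cysteine sulfinic acid on the way to taurine.

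Odam and BC037156 are neighbours, and their promoters are shown because the 2 genes were detected in the same cells. In GRCm38 with GENCODE M21 annotation, Odam lies on chromosome 5 from 87885029 to 87894174 on the plus strand and BC037156 from 87908779 to 87914171 on the same strand, 14605 bases away. Amtn lies 481934 bases from Odam on the same chromosome, from 88376108 to 88385916. Sostdc1 and Cdo1 lie on other chromosomes. RefSeq (GRCm38.p6) promoters were listed for 3 of the 5 genes, and the 250 bases before the RefSeq start of the pair are, 5′ to 3′ on the plus strand, chr5:87884760-87885009 for Odam and chr5:87908529-87908778 for BC037156.
Odam: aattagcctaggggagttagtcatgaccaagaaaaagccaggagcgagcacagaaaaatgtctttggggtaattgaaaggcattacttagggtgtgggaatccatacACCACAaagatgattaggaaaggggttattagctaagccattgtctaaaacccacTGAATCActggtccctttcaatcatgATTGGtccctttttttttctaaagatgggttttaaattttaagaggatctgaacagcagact
BC037156: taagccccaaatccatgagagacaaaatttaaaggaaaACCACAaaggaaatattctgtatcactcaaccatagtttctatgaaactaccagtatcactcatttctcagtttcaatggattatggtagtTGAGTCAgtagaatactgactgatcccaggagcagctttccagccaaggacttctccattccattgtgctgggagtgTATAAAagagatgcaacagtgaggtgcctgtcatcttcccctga
Capitals mark matches to 4 short motifs searched on both strands: the TATA box (TATAAA), the CCAAT box (CCAAT), AP-1 (TGANTCA) and RUNX (TGTGGT). Odam held a RUNX match 143 bases before its start, an AP-1 match at 88 bases and a CCAAT match at 62 bases. BC037156 held a RUNX match at 212 bases, an AP-1 match at 121 bases and a TATA box at 44 bases. The RUNX letters and the CCAAT match are on the other strand. Both promoters therefore shared the AP-1 and RUNX letters, which occur in 6.87% and 14.2% of 27025 promoters of the same length. TATAAA occurs in 13.0% and CCAAT in 34.5% of them. Such a match describes letters in a window and no binding was measured.

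Among the neighbours of Odam, levels were mostly low. From 500 kilobases before Odam to 500 kilobases past Amtn lie 33 genes, each protein coding or a member, of which 12 had 50 or more UMIs in keratinocytes and 9 had none. A UMI is a tag that counts 1 captured transcript molecule. Csn3, the kappa-casein gene that begins 31405 bases from Odam, had 84 UMIs in cHet control, 70 in cHet PD, 54 in cKO control and 98 in cKO PD keratinocytes. Csn1s1, which encodes another milk casein, had 4, 304, 70 and 84 UMIs in the same order. Ambn, the ameloblastin gene of the enamel matrix, had 0 UMIs in all 4.

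After removal of cells with under 200 genes or over 20% mitochondrial UMIs, 31150 cells remained, between 6595 and 8967 per library. The deposited libraries held 21368197 to 62914870 UMIs, and the depth differed with the condition: the lowest cell had 1501 UMIs in both controls and 500 in both PD libraries. The median mitochondrial share was 10.1% and 11.9% in the controls and 5.39% and 5.82% in the PD libraries. Pairs of libraries shared 65 to 116 cell barcodes. Clustering without the 5 genes and without Itga9 gave 33 clusters, of which 14 were taken as keratinocytes because desmoplakin (Dsp) reached 1700 CPM. CPM are the UMIs of a gene scaled to a common total of UMIs per group of cells. The keratinocyte clusters held 22730 cells: 6951 in cHet control, 5887 in cHet PD, 6081 in cKO control and 3811 in cKO PD, with median UMIs of 5570, 4009, 5086 and 2805. The cKO control library stood apart, since 1 basal-like cluster led by Dst, Krt5 and Krt14 had 1537 of its 1541 cells from it, as did 535 of 573 airway-like cells and 80 of 80 odorant gland cells. Itga9 in mononuclear phagocytes was 131, 84.6, 37.9 and 16.1 CPM from 46, 102, 18 and 10 UMIs in cHet control, cHet PD, cKO control and cKO PD, lower in the cKO library of each condition. Lyz2 in the same cells was 5885, 8790, 1979 and 4016 CPM, also lower in cKO. These phagocytes joined a Ctss and Lyz2 cluster (38, 237, 59 and 57 cells) and a Ly6c2 cluster (8, 47, 12 and 102 cells). What part this mix had in the Itga9 level was not tested. In keratinocytes Itga9 was at or below 1.32 CPM in every library.

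Odam was higher in the PD keratinocytes of both genotypes. It stood at 34.0 CPM in cHet control (32.3 to 35.7, 1620 UMIs), 267 in cHet PD (7378 UMIs), 92.7 in cKO control (3583 UMIs) and 514 in cKO PD (6473 UMIs). The PD library was 7.85-fold above control in cHet (7.44 to 8.29) and 5.55-fold above control in cKO (5.32 to 5.78). Between genotypes, cKO was 2.73-fold above cHet in the controls (2.57 to 2.89) and 1.93-fold above it in PD (1.86 to 1.99). The lowest level was thus in cHet control and the highest in cKO PD, with no overlap of counting intervals. On the log2 scale with 10 CPM added, PD over control of Odam was 2.65 in cHet and 2.35 in cKO. The cKO value was 2.10 without the basal-like cluster that the cKO control library filled, and 3.198 as a mean over single cells.

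BC037156 followed the same order. It rose from 558 CPM in cHet control (26620 UMIs) to 4689.7 in cHet PD (129670 UMIs), and from 1342 in cKO control (51872 UMIs) to 12299 in cKO PD (154892 UMIs). PD over control was 8.40-fold in cHet (8.29 to 8.51) and 9.17-fold in cKO (9.08 to 9.26). cKO over cHet was 2.40-fold in the controls (2.37 to 2.44) and 2.62-fold in PD (2.60 to 2.64). BC037156 made up 0.0558%, 0.469%, 0.134% and 1.23% of all keratinocyte UMIs in cHet control, cHet PD, cKO control and cKO PD. On the same log2 scale, PD over control of BC037156 was 3.05 in cHet and 3.19 in cKO, and with a mitochondrial cap of 10% it was 2.44 and 2.50. In cKO it was 4.07 as a mean over single cells and 2.90 without the basal-like cluster of the cKO control library.

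**Figure D1:**
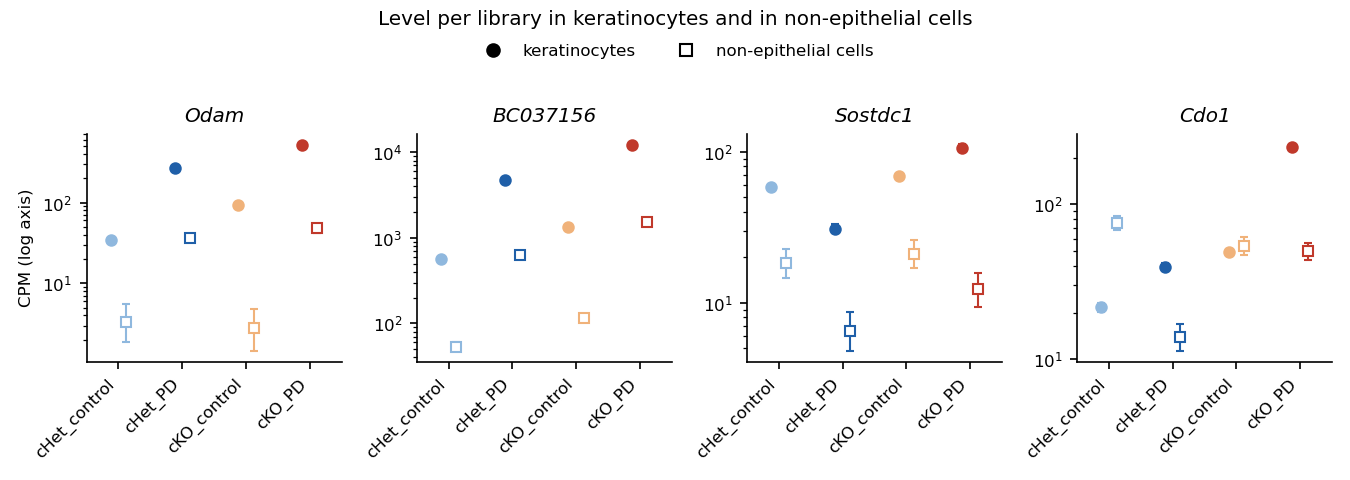
CPM (log axis) of Odam, BC037156, Sostdc1 and Cdo1 in each of the 4 libraries, in keratinocytes (filled circles) and non-epithelial cells (open squares), with 95% counting intervals. Odam and BC037156 are lowest in cHet control and highest in cKO PD keratinocytes, and the non-epithelial cells lie below the keratinocytes for both.

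The other 3 genes differed from this pattern. Cdo1 was 21.6 CPM in cHet control, 39.6 in cHet PD, 49.3 in cKO control and 235 in cKO PD, so that PD was 1.83-fold above control in cHet (1.68 to 1.996) and 4.76-fold above it in cKO (4.50 to 5.05). Sostdc1 was 58.7, 30.9, 68.9 and 106 CPM in the same order, 0.526 of the control level in cHet PD (0.487 to 0.568) and 1.54-fold above control in cKO PD (1.44 to 1.64). Amtn was nearly undetected, with 0, 9, 4 and 1 UMIs in 0, 3, 4 and 1 keratinocytes. The 0 of 6951 keratinocytes in cHet control allows a share of cells with a UMI of up to 0.0432% (3 counts of the total), which sets no limit on cells that express Amtn below capture. Whether the genotype changes the response of Sostdc1 or Cdo1 cannot be tested with 1 library per group.

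A gene passed the fold rule if its CPM differed by 2-fold or more after 10 CPM had been added in both libraries, if it had 50 UMIs in at least 1 of them, and if it had a 95% interval excluding no difference. In PD against control of cHet, 2 of the 5 genes were past it and higher (Odam and BC037156), where 3.98% of 12521 genes were higher and 3.6% lower. In cKO it was 3 of the 5 (Odam, BC037156 and Cdo1), where 1.71% of 12117 genes were higher and 2.24% lower. Sostdc1 was on neither side in either genotype. Between cKO and cHet controls, Odam and BC037156 were past the rule and higher, where 0.152% of 12515 genes were higher and 0.2% lower. Between cKO and cHet in PD, BC037156, Sostdc1 and Cdo1 were higher, where 0.318% of 10992 genes were higher and 0.719% lower. The genes were chosen with these contrasts in view, so nothing is read from the counts. Each library enters 2 of the 4 comparisons, which are therefore not independent.

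The UMIs of Odam and BC037156 came from a small share of keratinocytes, held by 2 clusters. These were chosen as the 2 keratinocyte clusters with the highest Odam level over all libraries pooled. Their high share of Odam UMIs, and the contrast with other keratinocytes, are thus partly set by that choice. The first cluster was led by Ppbp, Sprr2d, Tmprss11g, Dynap and Mal and was named mucosal suprabasal-like by its markers, with 2 markers of junctional or crevicular cells among its 50 leading genes. The second cluster, with Cxcl5, Nat8l, Runx2 and Epha7 among its leading genes, matched no set of markers and is called by its leading genes. Ptprc, the pan-leukocyte marker, was 3.36 CPM in the Ppbp cluster and 0.650 in the Cxcl5 cluster, against 615 in neutrophils. Together the pair held 50 of 6951 keratinocytes in cHet control (0.719%), 548 in cHet PD (9.31%), 110 in cKO control (1.81%) and 719 in cKO PD (18.9%). Those cells held 87.6%, 91.1%, 88.8% and 95.3% of the Odam UMIs of keratinocytes and 83.1%, 86.4%, 80.8% and 92.7% of the BC037156 UMIs. They held 30.1%, 86.9%, 53.9% and 92.8% of the Cdo1 UMIs but at most 3.67% of the Sostdc1 UMIs in any library. The leading genes of these clusters, Cxcl5 among them, themselves differed between control and PD keratinocytes, and the cells kept depend on the deposited UMI minimum, so the sizes of the clusters are given as counts of cells and not as a change in tissue.

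**Figure D2:**
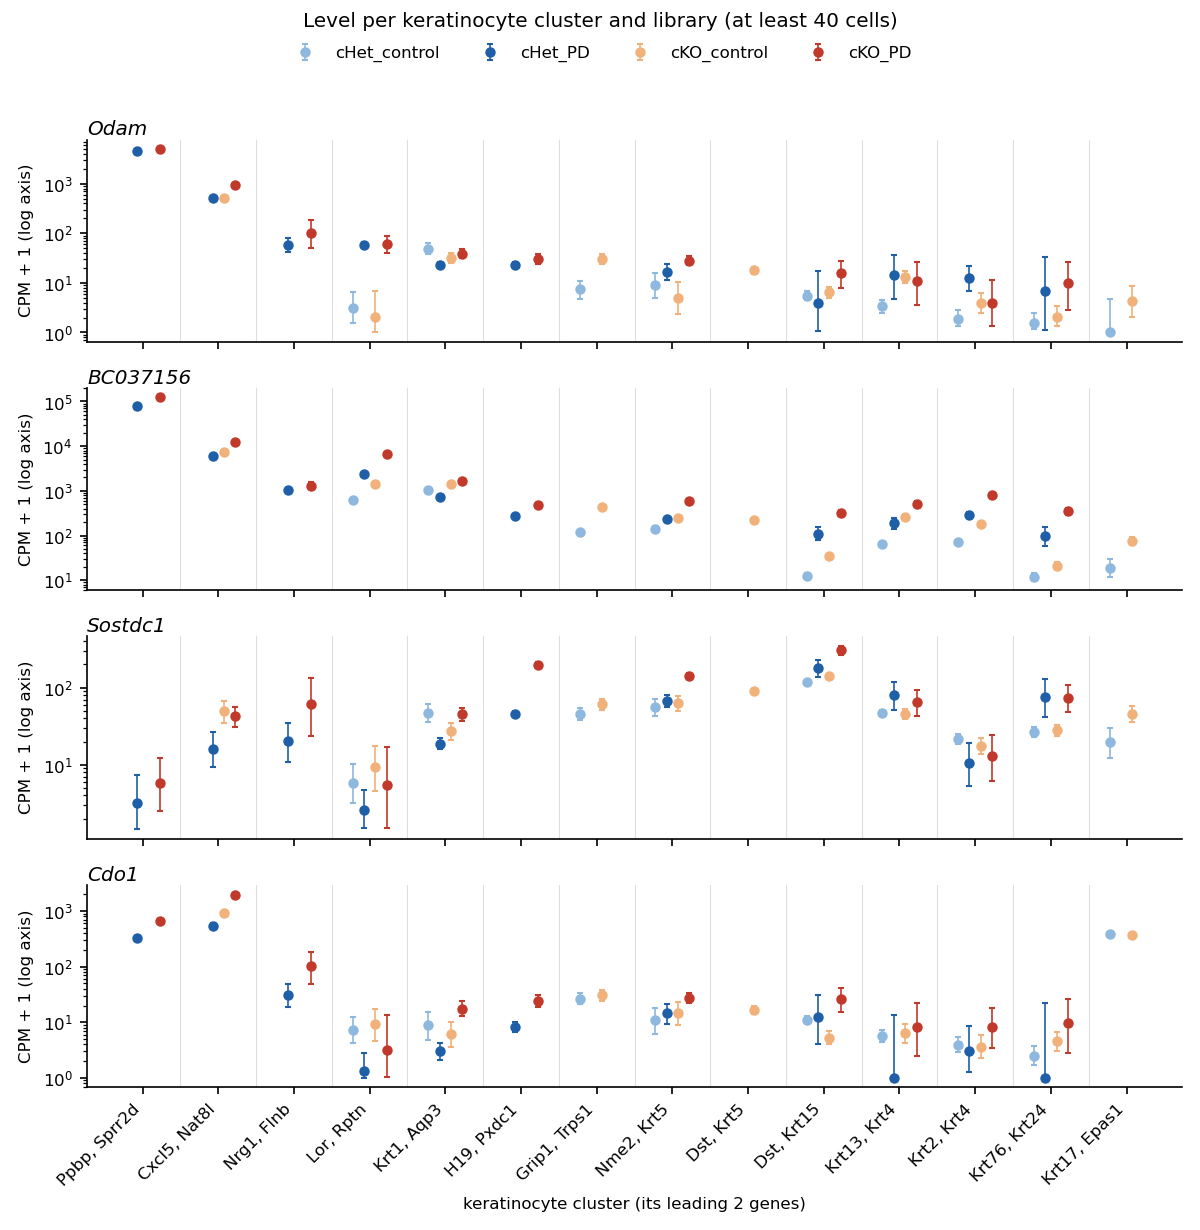
CPM plus 1 (log axis) of the members in each keratinocyte cluster, named by its 2 leading genes, for each library with at least 40 cells in the cluster. Odam and BC037156 peak in the Ppbp and Cxcl5 clusters, Sostdc1 in the Dst and Krt15 cluster.

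Pooled over the pair of clusters, the Odam level was nearly the same in all 4 libraries, but not within each cluster. The pooled level was 2825 CPM in cHet control, 2920.0 in cHet PD, 2778 in cKO control and 2929 in cKO PD. PD over control was 1.03-fold in cHet (0.976 to 1.10) and 1.05-fold in cKO (1.01 to 1.10), and cKO over cHet in PD was 1.00-fold (0.969 to 1.04). The clusters are mixed in other proportions in each library, the Ppbp cluster giving 22 of 50, 302 of 548, 36 of 110 and 401 of 719 cells. In the Ppbp cluster alone PD over control was 0.814 in cHet (0.766 to 0.866) and 0.598 in cKO (0.571 to 0.626), and in the Cxcl5 cluster 0.815 in cHet (0.684 to 0.976) and 1.84 in cKO (1.64 to 2.07). The Odam level was thus lower in PD in the Ppbp cluster of both genotypes and higher in PD in the Cxcl5 cluster of cKO. Those control levels rest on 22, 28 and 36 cells, besides 74 in the Cxcl5 cluster of cKO control. In keratinocytes outside the pair Odam was 4.26, 25.8, 10.7 and 28.8 CPM, again higher in PD than in the control of each genotype. Non-epithelial cells had 3.33, 36.5, 2.77 and 47.9 CPM.

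Pooled over the pair, BC037156 had opposite order of the genotypes in control and PD, but not within each cluster. The clusters are mixed in other proportions in each library, the Ppbp cluster giving 22 of 50, 302 of 548, 36 of 110 and 401 of 719 cells. The pooled BC037156 level was 44036 CPM in cHet control, 48686 in cHet PD, 36593 in cKO control and 68177 in cKO PD. PD over control was 1.11-fold in cHet and 1.86-fold in cKO, and cKO over cHet was 1.40-fold in PD but 0.831 in the controls (0.818 to 0.845), against 2.40-fold over all control keratinocytes. Outside the pair it was 95.4, 693, 266 and 1074 CPM. The pooled ratios of PD to control in the pair were thus below 2 in both genotypes, against 8.40 and 9.17 over all keratinocytes, where the pair held more of the cells in PD. By cluster the direction differed in cHet. There the median share of a cell's UMIs went from 12.7% in control to 5.81% in PD in the Ppbp cluster. It went from 0.0544% to 0.191% in the Cxcl5 cluster. In cKO both medians were higher in PD, 9.88% to 11.7% (Ppbp) and 0.168% to 0.396% (Cxcl5).

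**Figure D3:**
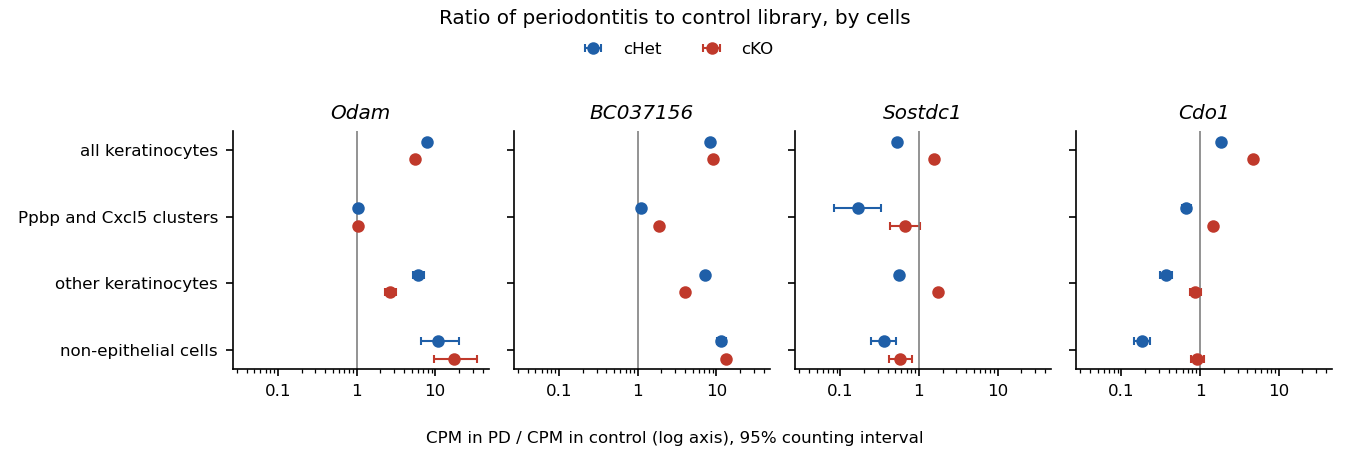
PD over control ratio of CPM (log axis) with 95% counting interval for Odam, BC037156, Sostdc1 and Cdo1 in all keratinocytes, in the Ppbp and Cxcl5 clusters together, in other keratinocytes and in non-epithelial cells, cHet in blue and cKO in red. The Odam ratio is near 1 pooled over the pair of clusters and above 5 over all keratinocytes; by cluster it was 0.598 (Ppbp) and 1.84 (Cxcl5) in cKO.

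The 2 clusters of the pair differed in level. In the Ppbp cluster Odam was 4550.1 CPM in cHet PD (302 cells) and 4947 in cKO PD (401 cells), and BC037156 was 77423 and 124345 CPM. In the Cxcl5 cluster Odam was 507 CPM in cHet PD (246 cells), 506 in cKO control (74 cells) and 931 in cKO PD (318 cells), and BC037156 was 6151, 7483 and 12538 CPM. The controls had 22 and 36 cells in the Ppbp cluster, under the 40 set for a level. Odam was thus about as high in the Ppbp cluster of both PD libraries, with cKO 1.09-fold above cHet, whereas in the Cxcl5 cluster cKO PD was 1.83-fold above cHet PD and 1.84-fold above cKO control. BC037156 in cKO PD was 1.61-fold above cHet PD in the Ppbp cluster and 2.04-fold above it in the Cxcl5 cluster.

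Outside the pair, the order of clusters was set by low levels. In cHet PD the next clusters for Odam were the Nrg1 cluster at 57.2 CPM and the Lor granular-like cluster at 56.5 CPM, which did not differ beyond their counting intervals. In cHet control, where neither cluster of the pair reached 40 cells, Odam was highest in the Krt1 and Aqp3 spinous-like cluster at 47.9 CPM, and the next cluster was at 8.27 CPM. The 47.9 CPM was 61 UMIs in 120 cells, in a library where 1 keratinocyte outside the pair held 49. At clustering resolution 2 the highest cluster there was instead led by Col17a1 and H19, at 19.7 CPM in 45 cells. BC037156 outside the pair was high in the same differentiated clusters: in the Lor granular-like cluster it was 637, 2424, 1398 and 6593 CPM in cHet control, cHet PD, cKO control and cKO PD. In the Dst and Krt15 basal-like cluster BC037156 was 11.4, 110.0, 33.7 and 324 CPM. Its level was thus lower in that basal-like cluster than in the granular-like cluster in every library.

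A few cells devoted a large share of their transcripts to BC037156. It took 1% or more of the UMIs in 37 keratinocytes of cHet control (0.532%), 406 of cHet PD (6.90%), 89 of cKO control (1.46%) and 560 of cKO PD (14.7%). It took 10% or more in 12, 79, 19 and 233 cells, and the highest single cell reached 44.2%, 38.5%, 36.0% and 53.4%. The median cell of the Ppbp cluster gave 12.7%, 5.81%, 9.88% and 11.7% of its UMIs to BC037156, and the median cell of the Cxcl5 cluster 0.0544%, 0.191%, 0.168% and 0.396%. Cells above 1% were also found outside the epithelium, 1, 37, 1 and 41 of them.

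UMIs of both genes were also found in non-epithelial cells. In non-epithelial cells Odam stood at 9.81%, 13.7%, 2.99% and 9.32% of its keratinocyte CPM, and BC037156 at 9.60%, 13.3%, 8.65% and 12.5%. For the keratinocyte gene Krt5 the same figure was 18.1%, 20.9%, 15.6% and 11.0%, and for Krt6b 14.1%, 17.6%, 14.9% and 12.1%. Odam and BC037156 were therefore at no larger a fraction than these keratins, except BC037156 against Krt5 and Krt6b in cKO PD. With each cell thinned to 1000 UMIs, Odam was detected in 0.676%, 6.29%, 2.01% and 11.8% of keratinocytes against 0%, 2.18%, 0.148% and 2.98% of non-epithelial cells. Unthinned, the shares were 1.84%, 10.8%, 4.31% and 18.8% against 0.735%, 4.05%, 1.33% and 5.02%, at median depths of 5885.5, 1430, 5208 and 1806.5 UMIs in the non-epithelial cells. Thinning left out 1244 and 317 keratinocytes of cHet PD and cKO PD as too shallow, and none of the controls. BC037156 was detected in 2.50%, 21.8%, 7.38% and 36.3% of thinned keratinocytes and in 2.50%, 18.8%, 4.73% and 24.97% of thinned non-epithelial cells. The shares were thus equal in cHet control and higher in keratinocytes in the other 3 libraries. The source of the UMIs in non-epithelial cells was not tested. Unthinned, BC037156 was detected in 6.89%, 42.8%, 17.5% and 58.1% of keratinocytes.

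Odam and BC037156 were found in the same keratinocytes. Among cells thinned to 1000 UMIs, BC037156 was present in 68.1% of 47 Odam-positive cells in cHet control, 84.6% of 292 in cHet PD, 70.5% of 122 in cKO control and 92.0% of 412 in cKO PD. In Odam-negative cells it was present in 2.06%, 17.5%, 6.09% and 28.9%. The difference was at least 63.1 percentage points in each library over all keratinocytes. It was smaller within the pair of clusters. In the Ppbp cluster the shares were 100% against 90.8% in cHet PD and 100% against 100% in cKO PD. In the Cxcl5 cluster they were 77.6% against 63.0%, 77.3% against 46.2% and 87.3% against 76.7% in cHet PD, cKO control and cKO PD. Outside the pair they were 38.1% against 1.95%, 60% against 14.6%, 55.1% against 5.66% and 69.8% against 24.1% in the library order above. Under the other settings tried, the share of Odam-positive cells with BC037156 ran from 42.2% to 100% in cHet control, 83.5% to 94.8% in cHet PD, 61.1% to 94.4% in cKO control and 91.6% to 96.6% in cKO PD. The amount rose with Odam too: the median BC037156 count was 5 UMIs in cells with 1 Odam UMI, 45 with 2 to 4 and 117 with 5 or more in cHet PD. In cKO PD those medians were 9.5, 62 and 189 UMIs. Within the Ppbp cluster alone, where nearly every cell had BC037156, its mean was 101 UMIs in Odam-positive and 37.3 in Odam-negative cells of cHet PD, and 159 and 71.8 in cKO PD. The cells of a library share its free RNA, and these shares are descriptions of cells, not replicates.

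**Figure D4:**
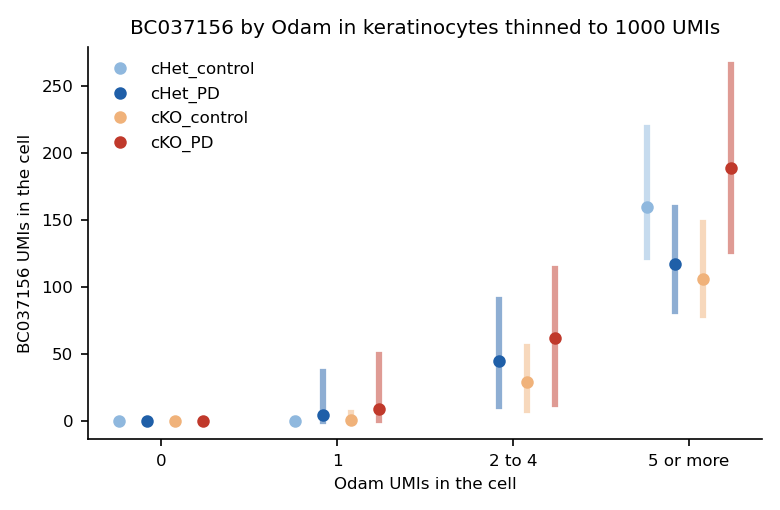
Median (points) and quartiles (bars) of BC037156 UMIs in keratinocytes thinned to 1000 UMIs, grouped by Odam UMIs (0, 1, 2 to 4, 5 or more), for each library. The median is 0 without Odam and reaches 117 in cHet PD and 189 in cKO PD at 5 or more Odam UMIs.

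The ratio of BC037156 to Odam UMIs was compared only across cells and libraries, since UMIs of 2 genes are not corrected for length. It was 17.0 in the Ppbp cluster of cHet PD (16.6 to 17.5) and 25.1 in that of cKO PD (24.4 to 25.8). In the Cxcl5 cluster it was 12.1 in cHet PD, 14.8 in cKO control and 13.5 in cKO PD. In keratinocytes outside the pair it was 22.4, 26.8, 24.8 and 37.3 in cHet control, cHet PD, cKO control and cKO PD. In both PD libraries the ratio was thus lower in the Cxcl5 than in the Ppbp cluster. The value outside the pair pools unlike clusters: in the H19 and Pxdc1 basal-like cluster it was 12.7 in cHet PD and 16.8 in cKO PD, in the Krt1 and Aqp3 cluster 33.5 and 44.2, and in the Lor cluster 42.9 and 110.5.

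Cdo1, on chromosome 18 from 46713193 to 46728395 on the minus strand, was also high in the pair of clusters, but with another order of libraries. Pooled over the pair it was 619, 413, 898 and 1302 CPM in cHet control, cHet PD, cKO control and cKO PD. That was 0.668 of control in cHet PD and 1.45-fold above control in cKO PD. The clusters are mixed in other proportions in each library, and in the Ppbp cluster alone Cdo1 was lower in PD in both genotypes. In the Cxcl5 cluster cKO PD (1928 CPM) was 3.52-fold above cHet PD (547 CPM) and 2.10-fold above cKO control (917 CPM). In the Ppbp cluster it was 323 CPM in cHet PD and 670 in cKO PD. Cdo1 was therefore higher in the Cxcl5 than in the Ppbp cluster of both PD libraries, the reverse of Odam. Among keratinocyte clusters of 40 or more cells in cHet control, Cdo1 was highest in the Krt17 and Epas1 cluster, 386 CPM in 134 cells, while the 28 and 22 cells of the Cxcl5 and Ppbp clusters had 748 and 458 CPM. The Krt17 and Epas1 cluster had 364 CPM in 202 cells of cKO control. Outside the keratinocytes Cdo1 was 775 CPM in the airway-like cluster of cKO control, and non-epithelial cells held 75.8, 13.9, 53.9 and 49.9 CPM, above the keratinocytes in both controls. Thinned Odam-positive cells held Cdo1 in 25.5%, 20.2%, 27.9% and 45.9%, and Odam-negative cells in 1.12%, 1.77%, 2.28% and 6.36%. Within the Ppbp cluster it was 24.1% against 10.5% in cHet PD and 43.1% against 35.2% in cKO PD. Within the Cxcl5 cluster it was 42.9% against 30.1%, 63.6% against 26.9% and 71.8% against 78.4% in cHet PD, cKO control and cKO PD.

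Sostdc1, on chromosome 12 from 36314139 to 36318452 on the plus strand, was high in other cells. It was highest in the Dst and Krt15 basal-like cluster in every library, at 117 CPM in cHet control, 177 in cHet PD, 140.0 in cKO control and 305 in cKO PD. In the Ppbp cluster it was 2.18 CPM in cHet PD and 4.77 in cKO PD. Thinned Odam-positive cells held Sostdc1 in 2.13%, 1.03%, 5.74% and 1.70%, below the 5.98%, 3.36%, 6.80% and 10.3% of Odam-negative cells in each library. Those positive shares rest on 1, 3, 7 and 7 cells, and in both controls their intervals held the share of Odam-negative cells. Outside the pair the shares were 4.76% against 5.99%, 3.53% against 3.44%, 7.25% against 6.83% and 4.76% against 10.9%. The Dst and Krt15 cluster itself held 2366, 110, 1253 and 244 cells, fewer in PD than in control of both genotypes. The Sostdc1 level over all keratinocytes was lower in PD in cHet but higher in cKO, 68.9 CPM in control and 106 in PD. The level inside the cluster was higher in PD than in control of both genotypes. What part the number of those cells had in the level over all keratinocytes was not tested.

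Amtn, the remaining gene of the Odam locus, had most of its UMIs outside the keratinocytes in both cKO libraries. In cHet PD all 9 of its UMIs were in keratinocytes, 100% of them in the Ppbp and Cxcl5 clusters. In a cluster led by Car6, Mfsd4a and secretoglobin genes it had 1, 0, 21 and 39 UMIs in 1, 0, 3 and 5 cells of cHet control, cHet PD, cKO control and cKO PD, with no Odam UMI in those cells. A single cell held 19 of the 21 UMIs in cKO control, and 1 cell held 25 of the 39 in cKO PD. Non-epithelial cells had no Amtn UMI in any library. At this depth the co-detection of Amtn with Odam in keratinocytes could not be described.

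The Odam-positive keratinocytes also differed from the others in genes that were not members. Ranked by the smallest difference in share of cells over the 4 libraries, each with 47 or more Odam-positive cells, BC037156 came first. Krt16, a keratin of activated epithelium, was detected in 63.8%, 77.7%, 62.3% and 53.4% of Odam-positive and 16.8%, 42.9%, 26.6% and 18.3% of Odam-negative cells. Tmprss11d, an airway-type serine protease gene, was detected in 48.9%, 58.6%, 46.7% and 63.6% against 16.3%, 9.01%, 17.5% and 10.3%. Krt6b, which pairs with Krt16, was detected in 74.5%, 81.8%, 67.2% and 78.4% against 32.3%, 41.7%, 41.0% and 41.5%. The antagonist of interleukin 1, Il1rn, was detected in 31.9%, 55.8%, 28.7% and 53.6% against 3.01%, 14.7%, 3.81% and 10.1%. S100a8, a subunit of calprotectin, followed at 23.4%, 53.4%, 23.8% and 57.8% against 0.348%, 18.8%, 1.17% and 12.1%. Genes detected less often were Mt4, a metallothionein gene of stratified epithelium, at 21.3%, 11.3%, 23.8% and 6.80% against 53.9%, 35.7%, 55.4% and 43.8%, and Ncl, the nucleolin gene, at 38.3%, 41.4%, 41.8% and 47.3% against 62.1%, 68.2%, 66.0% and 73.5%. Of the genes on a list of epithelial defence detected in 5% of cells, 10 of 11, 9 of 12, 5 of 9 and 10 of 13 were more frequent in Odam-positive cells by 5 points, against 668 of 3768, 354 of 3406, 421 of 3548 and 366 of 3366 of all genes. On a list of keratins it was 5 of 8, 6 of 7, 6 of 8 and 6 of 7.

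**Figure D5:**
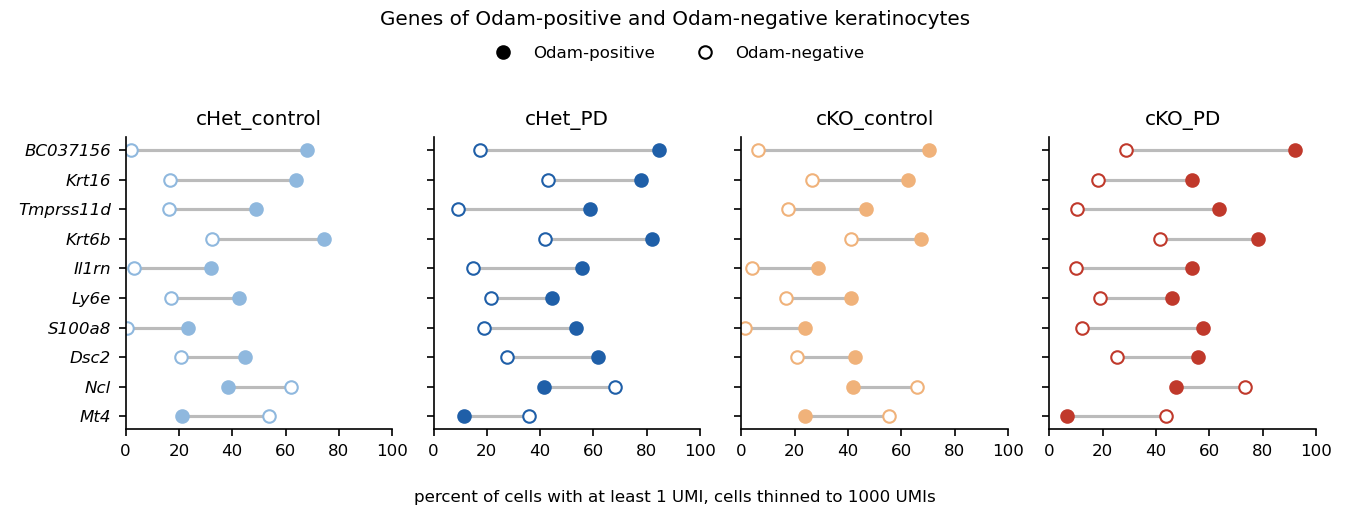
Percent of thinned keratinocytes with at least 1 UMI of each gene in Odam-positive (filled) and Odam-negative (open) cells, for each library. BC037156, Krt16, Tmprss11d, Krt6b, Il1rn, Ly6e, S100a8 and Dsc2 are more frequent in Odam-positive cells, and Ncl and Mt4 less frequent.

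The label of junctional epithelium was checked against markers other than the members. The simple-epithelial keratins known from this tissue were low in the pair: Krt19 was 0 CPM, and Krt7 and Krt8 were at most 3.23 and 6.61 CPM, wherever a cluster of the pair held 40 or more cells of a library. In other keratinocytes Krt8 was 0.947 to 6.98 CPM. Slpi, a secreted protease inhibitor, was 776 CPM in cHet PD and 318 in cKO PD cells of the Ppbp cluster, and 20.8 to 40.9 in the Cxcl5 cluster. Odaph, which encodes another enamel maturation protein, was 219.8 and 90.6 CPM in the Ppbp cluster and at most 0.789 in other keratinocytes. Lama3, a laminin gene of the basal lamina, was 535 CPM in the Cxcl5 cluster of cHet PD and 112 in the other keratinocytes of that library. Of the attachment genes detected in 5% of cells, 2 of 10, 4 of 10, 4 of 11 and 1 of 11 were more frequent in Odam-positive cells by 5 points, and 2 were less frequent in each library. Of all genes so detected, 668 of 3768, 354 of 3406, 421 of 3548 and 366 of 3366 were more frequent. Less frequent were 605, 439, 285 and 460 of them. In cHet PD, Col17a1 was detected in 27.4% of Odam-positive and 47.2% of Odam-negative cells, and Dst in 9.93% and 23.4%. Of the other listed markers, Lcn2 was detected in 14.7% of Odam-positive against 1.20% of Odam-negative cells in cHet PD. It was 28.4% against 1.43% in cKO PD. Krt17 was 14.7% against 7.52% in cHet PD and 12.1% against 3.18% in cKO PD. Tmprss11g was 2458 and 1640 CPM in the Ppbp cluster of these libraries, against 86.6 and 25.2 in other keratinocytes. Krt18, Saa3 and Duox2 were in at most 1.03% of Odam-positive cells, and Krt23 and Il1a in at most 4.45%. The markers thus gave no single answer on the label, and the cells are called by their leading genes.

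The genes whose level was most like that of Odam over 88 groups of cells, each a cell class or keratinocyte cluster within a library with 40 or more cells, included BC037156 in first place. By Pearson correlation of log2(CPM + 10), with 12560 genes considered, r was 0.851 for BC037156, 0.835 for Tmprss11g, 0.773 for Nat8l, 0.748 for Ldhd, 0.744 for Vnn1, 0.734 for Sprr2d, 0.721 for Odaph and 0.718 for Dynap. Within the 42 keratinocyte groups it was 0.884 for BC037156. For BC037156 the most alike genes besides Odam were Tmprss11g at 0.762 and Dynap at 0.720. For Cdo1 they included Wfdc2 at 0.781 and Eya2 at 0.668, and for Sostdc1 they were Aldh4a1 at 0.831, Popdc3 at 0.819 and Tfap2b at 0.796. Odam and Cdo1 correlated at 0.479 and Odam and Sostdc1 at -0.08. Groups of 1 library share its depth and free RNA, so r is a description.

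Other genes of the same pathways were taken from lists drawn up with earlier results known. Over all genes considered, 3.98% were past the fold rule and higher in PD and 3.6% lower in cHet. In cKO these shares were 1.71% and 2.24%. Of the list of enamel and secretory calcium-binding phosphoprotein genes, 21 of 22 were listed in the files and 6 had enough UMIs in cHet keratinocytes: 2 were past the fold rule and higher in PD and 0 lower, with a median log2 ratio of 0.24 against -0.07 over all genes. In cKO it was 1 higher and 0 lower of 5, with a median of 0.64 against -0.04. Odam itself is on this list and is one of the 2 in cHet and the 1 in cKO. Odaph was 0.608 CPM in cHet control and 12.2 in cHet PD, 20.1-fold above it. Of genes of hemidesmosome and basal lamina attachment in cHet, 5 were higher and 1 lower of 17 (median 0.17), and in cKO 0 higher and 2 lower of 16 (median -0.18). Dst, which links keratins to the hemidesmosome, was 1131 and 279 CPM in cHet control and PD, and 1409.9 and 464 in cKO control and PD.

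Of the 7 lists, that of epithelial defence had the most genes higher in PD. Of 21 measured in cHet, 13 were higher and 1 lower (median log2 ratio 1.32), and of 20 in cKO, 9 were higher and 1 lower (median 0.83). Over all genes, 3.98% were higher and 3.6% lower in cHet, and 1.71% and 2.24% in cKO. S100a8 was 26.1 CPM in cHet control and 1029.8 in cHet PD, and 70.5 and 1105 in cKO control and PD. Il1rn was 44.5 and 419.6 CPM in cHet, and 66.6 and 231 in cKO. Of the simple and stress keratins, 1 was higher and 3 lower of 13 in cHet, and 0 higher and 4 lower of 13 in cKO. Of genes of the cysteine and taurine pathway, a list that holds Cdo1, 1 was higher and 3 lower of 22 in cHet, and 2 higher and 0 lower of 21 in cKO. Slc7a11, the cystine importer, was 11.8 and 37.2 CPM in cHet control and PD, and 12.5 and 56.1 in cKO. Of BMP and WNT genes, a list that holds Sostdc1, 0 were higher and 3 lower of 44 in cHet, and none was past the rule of 43 in cKO. Id2, a target of BMP signalling, was 147 CPM in cHet control and 43.9 in cHet PD.

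Fewer list genes passed the fold rule between genotypes, as did fewer of all genes. Between the controls, 1 enamel gene (Odam) and 3 defence genes were higher in cKO, and no other list had a gene past the rule. There 0.152% of all genes were higher and 0.2% lower. Of the cysteine and taurine genes, in PD, 2 of 21 were higher in cKO PD than in cHet PD, Cdo1 and Fmo1, a monooxygenase gene, at 28.2 CPM in cHet PD and 84.2 in cKO PD. Of the BMP and WNT genes, 2 of 40 were higher, Sostdc1 and Id2, the latter at 43.9 CPM in cHet PD and 108 in cKO PD. Of the other lists in PD, defence had 2 higher and 2 lower of 20, attachment 1 lower of 17, keratins 1 lower of 11, dissociation genes 1 lower of 28 and enamel genes none of 6, where 0.318% of all genes were higher and 0.719% lower. Genes known to rise during tissue dissociation also moved with the condition, 9 of 28 higher in PD of cHet (median 0.33) and 7 of 28 in cKO (median 0.71). Of all genes, 3.98% and 1.71% were higher in these comparisons. The part of the dissociation genes in the levels of the members was not tested. Depth and mitochondrial share differed with the condition as given above; with 1 library per group, the condition and the library cannot be told apart.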

How the data were processed

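Gingival cells were sequenced as 1 library per group. Per the labels' protocols, tissue was digested with collagenase and dispase, stained for viability and captured on the BD Rhapsody system, although the description label names 10x Genomics. Per the submitters' processing notes, fastp and STARsolo 2.7.10a were used with mm10. The authors deposited filtered UMI counts per gene and cell, raw and whole; the annotation they used is not given in the sources used here. Cells with at least 200 genes and at most 20% mitochondrial UMIs were kept. No doublets were removed, and an alternative left out the 5% deepest cells.

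Counts were scaled to 10000 per cell and log-transformed. The 2000 most variable genes (without the 5 genes and Itga9), 30 principal components, 15 neighbours and Leiden resolution 1 (seed 1) gave the clusters. Clusters were named from marker lists, and the Dsp threshold was set after seeing the data. Summed UMIs gave CPM, with exact Poisson intervals, and ratios, with exact conditional binomial intervals. Shares of cells have exact Clopper-Pearson intervals. Libraries held 8767, 9072, 9331 and 6684 barcodes (cHet control, cHet PD, cKO control, cKO PD), with median depths of 5292, 2934, 5076 and 2509 UMIs. PCR duplicates are collapsed by UMIs, so intervals cover the counting of molecules alone. The fold rule and thinning were tested on simulated data. Python 3.11.15, numpy 2.4.6, scipy 1.17.1, pandas 2.3.3, scikit-learn 1.9.0 and leidenalg 0.10.2 were used; edgeR 4.0.16 in R 4.3.3 gave only TMM factors for an alternative scaling, and no test.

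The members and lists were chosen with earlier results of these data known. Besides the members, genes were named by rule: the 8 most alike for Odam and 3 for each other member, the 10 with the largest difference in share between Odam-positive and Odam-negative cells, and up to 4 of each list by level or ratio. Some genes that this rule picked are not reported here. Marker and neighbouring genes outside this rule (Slpi, Csn3, Csn1s1, Ambn, the simple keratins, Lama3 and Col17a1) were chosen after their values were seen. Promoters came from RefSeq on GRCm38.p6 and gene positions from GENCODE M21 on GRCm38, the build named mm10 by the submitters.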

Additional observations from a re-analysis of the deposited data

Results flagged for a closer look

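Sostdc1 moved in opposite directions in the genotypes. Over all keratinocytes the log2 ratio of its CPM, PD over control with 10 CPM added, was -0.75 in cHet and 0.56 in cKO. In keratinocytes outside the Ppbp and Cxcl5 clusters it was -0.68 in cHet and 0.73 in cKO. Cdo1 did the same pooled over the Ppbp and Cxcl5 clusters, at -0.57 in cHet and 0.53 in cKO. Taken alone, the Ppbp cluster had a lower Cdo1 level in PD in both genotypes. Only the Cxcl5 cluster moved in opposite directions. With 1 library per group these differences between genotypes were not tested.

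Cells of unnamed, gland-like and airway-like clusters belonged neither to the keratinocytes nor to the non-epithelial class, and as a class entered no comparison of PD with control. Some members stood above the matched control there and others below. In cKO control 535 of these 915 cells were airway-like, and in cHet PD 530 of these 559 cells were in a cluster led by Fabp4, Lpl and Cd36. At clustering resolution 2 the cluster with these leading genes, 529 cells in cHet PD, was named endothelium. Odam was 30.6 CPM in cHet PD against 0.795 in cHet control, and 30.3 CPM in cKO PD against 8.39 in cKO control. BC037156 was 823 CPM in cHet PD against 10.3, and 748 CPM in cKO PD against 263. Sostdc1 was 17.7 CPM in cKO PD against 6.99, and Amtn 10.9 CPM against 1.96. In cHet, Sostdc1 was 8.40 CPM in PD against 8.74 and Amtn 0 against 0.397. Cdo1 was lower in PD, 9.17 CPM against 166 in cHet and 37.9 against 522 in cKO. The Amtn UMIs were those of the cluster led by Car6 and Mfsd4a, where 1 cell held 19 of 21 in cKO control and 1 cell 25 of 39 in cKO PD. The clusters that make up these cells differ between the libraries, and the part of that difference in the levels was not tested.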

How the results depend on the processing

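No paired analysis was possible because only 1 library stands for a group. No PD over control or genotype ratio over all keratinocytes changed its direction under the settings tried, although Cdo1 and Amtn ratios reached 0 in some, and ratios within clusters were not run under them; PD over control of Odam and BC037156 was at least 2-fold in 12 of 12 of them in both genotypes. Log2 ratios that moved by more than counting error are given by gene. For Odam in cHet (2.65) they were 2.59 thinned, 2.73 with TMM, 2.26 with a 10% mitochondrial cap, 2.40 without the 5% deepest cells, 2.56 with non-epithelial CPM subtracted and 2.94 with 1 CPM added. For Odam in cKO (2.35) they were 2.17 in cells of at least 1501 UMIs, 2.86 thinned, 1.77 with the cap, 2.47 without the deepest cells, 3.198 as a mean over cells, 2.25 subtracted, 2.46 with 1 CPM and 2.10 without the basal-like cluster filled by cKO control. For BC037156 in cHet (3.05) they were 3.198 thinned, 3.13 with TMM, 2.44 with the cap, 2.91 without the deepest cells, 3.18 as a mean over cells, 2.99 subtracted, 3.07 with 1 CPM and 3.0002 without shared barcodes. For BC037156 in cKO (3.19) they were 2.96 from 1501 UMIs, 3.71 thinned, 3.24 with TMM, 2.50 with the cap, 3.37 without the deepest cells, 3.15 at resolution 2, 3.15 with the members in the clustering, 4.07 as a mean over cells, 3.12 subtracted and 2.90 without the basal-like cluster. The settings on shared barcodes and on that cluster were chosen after seeing the data. The cause of these shifts was not tested.

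Other ratios depended more on the setting. The number of settings out of 12 with at least a 2-fold difference was 9 for Odam (log2 ratio 0.85 to 1.51) and 11 for BC037156 (0.96 to 1.53) between genotypes in control, 4 for Odam between genotypes in PD (0.74 to 1.43), and 3 for Cdo1 in PD against control of cHet (0.64 to 1.84). For Cdo1 in PD against control of cKO it was 12, from 1.85 to 4.28. Cdo1 between genotypes in control went to 0 when non-epithelial CPM was subtracted. Genes past the fold rule numbered 949 in cHet, 478 in cKO, 44 between genotypes in control and 114 in PD; at 1.5-fold they were 2844, 1837, 164 and 530, and 768 in cKO after thinning. Higher against lower genes were 498 against 451 in cHet (475 against 682 thinned, 595 against 382 with TMM), 207 against 271 in cKO (220 against 548 thinned), and 35 against 79 between genotypes in PD (28 against 92 with TMM, 204 against 326 at 1.5-fold). With the members in the clustering, Odam was highest in the Cxcl5 cluster of cHet control (460.0 CPM, 47 cells) and in the Ppbp cluster of cKO control (8031 CPM, 41 cells). Depth limits Amtn, and the number of cells, 22 and 36, limits the Ppbp cluster of the controls. Of the results on co-detection 22 values moved and 74 did not, and of those on shares of cells 50 moved and 70 did not. The share of Odam-positive keratinocytes ran from 0.676% to 1.84% in cHet control, 6.17% to 11.3% in cHet PD, 2.01% to 5.37% in cKO control and 11.8% to 20.6% in cKO PD.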

Other observations

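At clustering resolution 2, the Ppbp cells separated into a cluster led by Ppbp, Sprr2d, Dynap, Arg1 and Sprr2f that held 3 markers of junctional or crevicular keratinocytes among its 50 leading genes, the members not included. The marker rule named this cluster junctional or crevicular. It held 68 cells of cHet PD and 90 of cKO PD, with 12 and 11 in the controls. Odam was 9859.9 CPM in cHet PD and 11712 in cKO PD there, and BC037156 was 126724 and 229986 CPM. Every one of these PD cells lay in the Ppbp cluster of resolution 1. In cKO control, the Cxcl5 cluster of that resolution had the highest Odam level among clusters of 40 or more cells, 718 CPM in 46 cells, while the 36 Ppbp cells of resolution 1 in that library had 8272 CPM.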
